A study of Mus musculus with 8 samples.

Results

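The 10 neuropeptide genes *Sst*, *Npy*, *Cort*, *Vip*, *Tac1*, *Tac2*, *Cck*, *Pdyn*, *Penk* and *Gal* were followed through bulk RNAseq and single nucleus RNAseq (snRNAseq) of the adult mouse hippocampus. They were chosen by name, as genes whose products are secreted signalling peptides, and all 10 were found among the 46517 genes of the bulk RNAseq data and among the 24051 genes of the snRNAseq data. The study compared mice that lack *Wls* in cells descended from *Gfap*-expressing progenitors, genotype *Wls fl/-;Gfap-Cre* (mutant), with *Wls fl/+;Gfap-Cre* mice (control). *Wls* encodes a carrier protein that Wnt ligands need in order to be secreted. The control mice carry the same *Gfap*-driven Cre recombinase and 1 floxed copy, and so keep 1 working copy of *Wls* in the recombined cells, whereas the mutant mice keep none there. Each data type came from 2 mice per genotype, aged 12 weeks and labelled male, with both hippocampi of 1 mouse in each sample and no drug treatment.

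Neuropeptides are cut out of larger precursor proteins inside dense-core granules and are released beside the fast transmitters. In the hippocampus most of the 10 genes are textbook markers of inhibitory interneurons, which use them to label subclasses: *Sst* (somatostatin) marks dendrite-targeting cells, *Vip* (vasoactive intestinal peptide) marks cells that mainly contact other interneurons, and *Npy* (neuropeptide Y) marks several subclasses. *Pdyn* encodes the precursor of the dynorphins, opioid peptides that granule cells of the dentate gyrus (DGCs) release from mossy fibers, and *Cck* (cholecystokinin) is made by both pyramidal cells and a class of basket cells.

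The targeted gene and the labels were checked first. *Wls* was 10.5 and 10.1 TPM (a share of all transcripts, corrected for transcript length) in the control bulk libraries and 2.61 and 5.44 TPM in the mutant ones. Over all nuclei, *Wls* was 20.7 and 27.4 UPM (UMIs of the gene per 1000000 UMIs of the nuclei, with no further scaling, where a UMI or unique molecular identifier stands for 1 captured transcript) in control mice and 6.96 and 11.7 in mutant mice. The bulk libraries labelled replicate 2 went against the labelled sex: *Xist*, the RNA that coats the inactive X chromosome, was 175 and 101 TPM in control and mutant replicate 2 and 0.12 and 0.35 TPM in replicate 1, whereas the Y-linked gene *Ddx3y* was 0.30 and 0.17 TPM against 30.9 and 28.9 TPM. Both genotypes held 1 library of each pattern, so values within replicate 1 and within replicate 2 are given beside the bulk results. The bulk libraries held about 56002400 to 79576200 expected counts. The snRNAseq samples held 6469 and 7192 control nuclei and 5304 and 10460 mutant nuclei, with 38980264 and 61559052 UMIs in control and 26307081 and 76486132 UMIs in mutant samples. Between 0.468% and 0.681% of a sample's cell barcodes also occurred in another sample. DGCs made up 36.1% and 27.9% of control nuclei and 1.70% and 4.43% of mutant nuclei, and inhibitory neurons 9.0% and 9.12% against 19.4% and 15.8%.

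The start of a gene is shown here for 3 members, 250 bases before to 50 bases after the transcription start, 5′ to 3′ on the strand of the gene, because *Sst* and *Vip* are the textbook peptide genes driven by cAMP and *Pdyn* is the member that differed most between the genotypes. The sequences are those of RefSeq (GRCm38.p6), where 9 of the 10 members had an entry and *Penk* had none. Capitals mark the cAMP response element, searched on both strands as TGACGTCA or as its shorter form TGACGT, which is contained in the longer one. They lie at chr16:23890795-23891094 on the minus strand (*Sst*), at chr10:5638968-5639267 on the plus strand (*Vip*) and at chr2:129699889-129700188 on the minus strand (*Pdyn*).
Sst: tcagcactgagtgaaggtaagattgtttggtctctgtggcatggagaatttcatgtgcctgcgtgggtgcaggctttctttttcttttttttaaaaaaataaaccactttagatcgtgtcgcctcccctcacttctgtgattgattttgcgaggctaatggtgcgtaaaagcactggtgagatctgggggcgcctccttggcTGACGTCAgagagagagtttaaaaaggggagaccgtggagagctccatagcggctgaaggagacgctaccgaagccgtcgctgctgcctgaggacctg
Vip: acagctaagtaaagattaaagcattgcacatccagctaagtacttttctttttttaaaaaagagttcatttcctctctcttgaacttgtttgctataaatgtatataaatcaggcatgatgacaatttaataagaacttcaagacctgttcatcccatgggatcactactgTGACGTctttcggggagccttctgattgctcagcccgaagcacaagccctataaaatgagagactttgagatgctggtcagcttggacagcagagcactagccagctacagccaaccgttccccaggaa
Pdyn: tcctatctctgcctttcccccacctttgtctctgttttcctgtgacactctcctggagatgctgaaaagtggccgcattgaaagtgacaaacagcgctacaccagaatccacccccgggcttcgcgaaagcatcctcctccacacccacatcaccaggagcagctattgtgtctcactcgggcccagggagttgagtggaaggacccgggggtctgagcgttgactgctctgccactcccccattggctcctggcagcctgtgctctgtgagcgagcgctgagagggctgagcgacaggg
The full element lay 48 to 41 bases before the start of *Sst* and in no other member, and 2.03% of 27025 genes hold it in the same window. The shorter form lay 79 to 74 bases before the start of *Vip*, and 8.37% of genes hold it. These letters did not occur in the window shown for *Pdyn*, which the sequence is there to show, and the match is a description of the sequence only.

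All 10 members are protein-coding genes, and 9 of them share exon bases with no other gene. *Penk*, on chromosome 4 at 4133531 to 4138819 (GRCm38, minus strand), shares exon bases with *A830012C17Rik* on the other strand. The library kit kept strand, but whether the counting used it is not given in the sources used here, so the *Penk* values are uncertain to that extent.

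In control nuclei 7 of the 9 members with at least 50 UMIs were highest in the nuclei that the authors labelled inhibitory neurons. The cell types were made from these same nuclei, so levels between types are a description with no test. Among the genes of interneurons that contact dendrites, *Sst* was 275 and 341 UPM in inhibitory nuclei, a mean of 308 ± 46.5 (SD, n = 2 mice), against 39.4 in the next type, microglia. *Npy* was 79.1 and 120 UPM in inhibitory nuclei, with a mean of 9.69 in the next type, again microglia. *Cort*, which encodes cortistatin, a peptide that binds the somatostatin receptors, was 43.4 and 26.3 UPM, with a mean of 34.9 ± 12 (SD, n = 2). Each of these levels in inhibitory nuclei lay above that of every other type in both control mice.

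*Vip* had a mean of 129 ± 58.5 UPM (SD, n = 2) in inhibitory nuclei, with 88.0 in control replicate 1 and 171 in control replicate 2. *Tac1*, the precursor of substance P and neurokinin A, had 25.5 and 30.2 UPM there, and *Tac2*, the precursor of neurokinin B, 23.5 and 29.9. *Penk*, the precursor of the enkephalins, was spread most widely of these genes: its mean was 9.15 UPM in inhibitory nuclei, 6.65 in excitatory neurons, 5.46 in DGCs and 5.00 in CA1 pyramidal cells. The ranges of these 4 *Penk* levels over the control mice overlapped between neighbours in that order. In control replicate 2, 25 *Penk* UMIs fell in excitatory cluster 10, and 19 of them were in 1 nucleus.

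*Cck* had a different order. Its mean was 291 UPM in excitatory neurons, 275 in mossy cells, 261 in CA1 pyramidal cells and 244 in inhibitory neurons, levels whose ranges overlapped, and among the 11 types with 10 or more nuclei in all samples it was lowest in DGCs at 106 UPM. Of all *Cck* UMIs, 34.4% and 39.6% in the control mice were in CA1 nuclei and 11.7% and 14.5% in inhibitory nuclei. Among the clusters, excitatory cluster 7 was highest, with 421 and 613 UPM in control mice.

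*Pdyn* was highest in DGCs. It was 8.97 and 8.48 UPM in control DGCs, a mean of 8.73 ± 0.342 (SD, n = 2), and 79.7% and 78.9% of all *Pdyn* UMIs were in DGC nuclei. Astrocytes came next with 8.94 and 3.40 UPM, but 5 of the 10 *Pdyn* UMIs in the astrocytes of control replicate 1 were in 1 nucleus. *Gal*, which encodes galanin, had 3, 6, 1 and 2 UMIs in control replicates 1 and 2 and mutant replicates 1 and 2, and 7 of the 9 control UMIs were in mossy cells, a type of 38 and 32 nuclei. It is therefore at the limit of detection in nuclei.

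**Figure D1:**
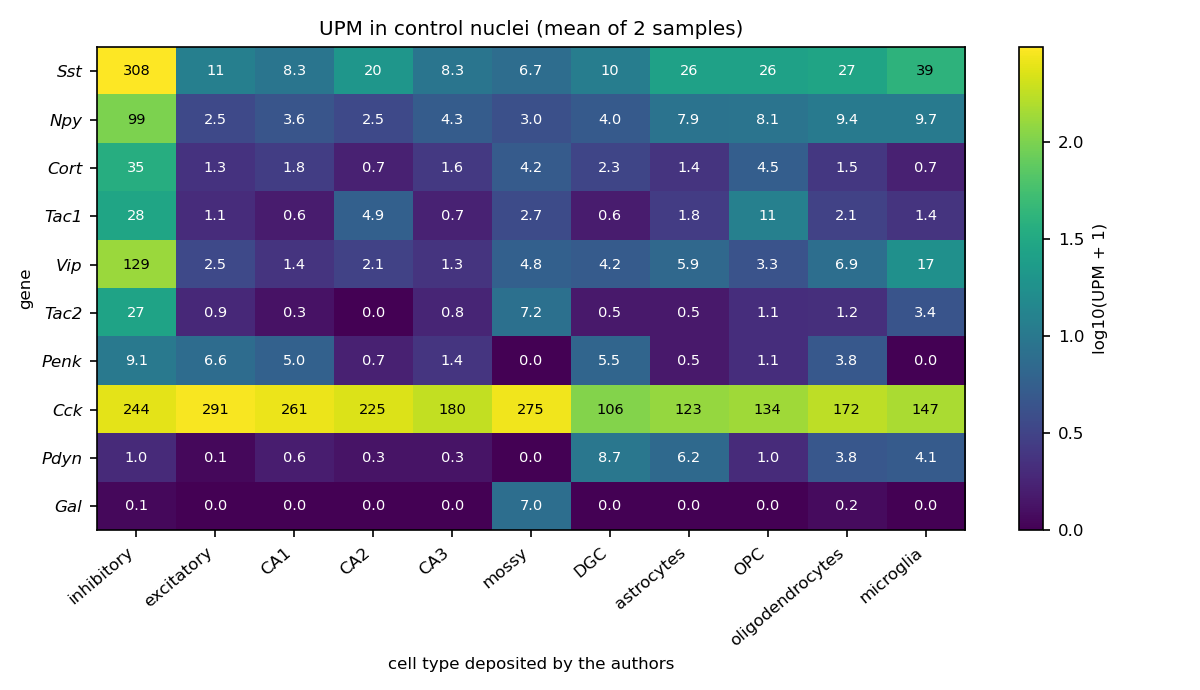
Level of each neuropeptide gene in each of the 11 deposited cell types with 10 or more nuclei in all samples, as UPM in control nuclei (numbers, means of 2 mice) with log10 of the level plus 1 as color. The row of *Sst* falls from 308 in inhibitory neurons to 6.68 in mossy cells, *Cck* stays above 100 in all 11 types, and *Pdyn* is highest in DGCs.

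RNA that escapes into the droplets puts some UMIs of abundant transcripts into every nucleus. Oligodendrocytes, which do not make *Sst*, had an *Sst* UMI in 3.45% and 8.16% of control nuclei, at median depths of 1727 and 2339 UMIs. Inhibitory nuclei had one in 23.7% (exact 95% binomial interval 20.3 to 27.4, counting error only) and 28.8% (25.4 to 32.4), at median depths of 6405 and 9447.5 UMIs. When each nucleus was thinned to 1500 UMIs, which left out no control nucleus of either type, the shares were 3.45% and 5.25% against 16.0% and 18.9%. The share of *Sst* nuclei among inhibitory neurons was thus above this background in both mice.

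For *Cck* it was not. After thinning, 21.98% and 24.4% of oligodendrocytes and 18.7% and 24.5% of inhibitory nuclei held a *Cck* UMI. Oligodendrocytes were the shallower nuclei, so similar shares after thinning need not mean a similar part of free RNA. How much of the inhibitory share is background was not tested. CA1 nuclei held one in 29.8% and 38.0%. Single inhibitory nuclei with up to 30 and 66 *Cck* UMIs occurred in the control mice.

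The inhibitory type consisted of clusters 5, 12, 14, 15 and 18, of which clusters 5, 12 and 18 had at least 200 UPM of *Gad1* and *Gad2* together in control nuclei (547, 1174 and 1443), as markers of GABA synthesis, and clusters 14 and 15 did not (66.6 and 6.44). *Sst* and *Vip* were concentrated in cluster 5. *Sst* was 367 and 477 UPM there, and *Vip* 119 and 237. *Npy* was spread over the clusters with *Gad1* and *Gad2*: it was 140 and 309 UPM in cluster 18, 88.1 and 127 in cluster 5 and 63.4 and 103 in cluster 12. Cluster 18 held 23 and 24 control nuclei.

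Single nuclei of cluster 5 showed which peptide genes were found together. A nucleus was counted for a gene with at least 2 UMIs of it, which leaves out most single stray UMIs. *Sst* nuclei numbered 102 and 132 in control and 207 and 304 in mutant mice, and *Vip* nuclei 48 and 62 in control and 71 and 101 in mutant mice. The same nucleus held both in 0 and 1 cases in control mice and in 1 and 0 cases in mutant mice. Of the nuclei without *Vip*, by contrast, 30.6% and 39.3% in control and 35.0% and 34.8% in mutant mice held *Sst*.

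*Npy* and *Cort* went with *Sst*. Of the *Npy* nuclei, 52.9% and 52.1% in control and 64.8% and 67.1% in mutant mice also held *Sst*, against 22.7% and 27.4% and 28.4% and 28.0% of the nuclei without *Npy*. Of the *Cort* nuclei, 14 of 21 and 16 of 24 in control and 5 of 8 and 21 of 32 in mutant mice held *Sst*, and none in any mouse held *Vip*, *Tac2* or *Penk*. *Tac1* nuclei held *Cort* in 9 of 25 and 9 of 32 cases in control and 0 of 23 and 8 of 41 in mutant mice. *Sst* was less frequent in *Tac1* nuclei than in the rest in 2 mice and more frequent in the other two: 24.0% and 37.5% in control and 21.7% and 36.6% in mutant mice held it, against 27.0% and 33.1% and 31.8% and 31.0% of the rest.

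*Tac2* and *Penk* went with *Vip*. Of the *Vip* nuclei, 12.5% and 35.5% in control and 18.3% and 11.9% in mutant mice held *Tac2*, against 3.6% and 4.2% and 1.53% and 1.6% of nuclei without *Vip*. Of the *Penk* nuclei, 6 of 7 and 15 of 18 in control and 3 of 3 and 3 of 8 in mutant mice held *Vip*. *Tac2* and *Penk* themselves shared 0 and 8 nuclei in control and 0 and 1 in mutant mice. *Penk* and *Sst* were not seen in 1 nucleus in any of the 4 mice. The depth of these nuclei differed: in control replicate 1 the median total was 7565 UMIs in *Sst* nuclei against 7408 in the rest of the cluster, but 4157 UMIs in *Vip* nuclei against 7752, and *Vip* nuclei were the shallower ones in all 4 mice. *Npy* nuclei were the deeper ones in all 4 mice, with a median of 8225 UMIs against 7012.5 in the rest in control replicate 1. The part of depth in the pairs was not tested.

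**Figure D2:**
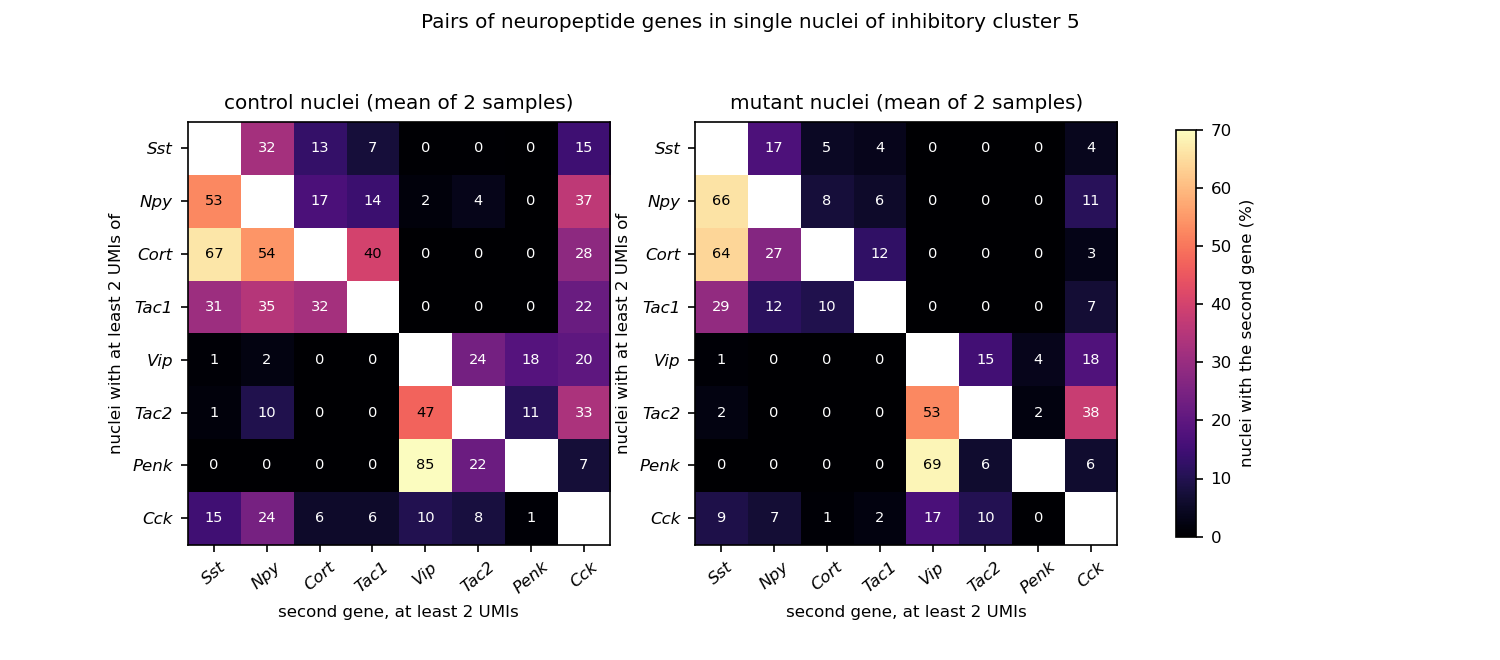
Pairs of neuropeptide genes in single nuclei of inhibitory cluster 5, with control mice on the left and mutant mice on the right. Each square gives the percentage of nuclei with at least 2 UMIs of the row gene that also hold at least 2 UMIs of the column gene (mean of 2 mice). *Npy* and *Cort* nuclei often hold *Sst*, *Penk* nuclei often hold *Vip*, and values are at or near 0 between *Sst* and *Vip* in both genotypes.

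Markers of interneuron lineage, which the counting of pairs did not use, differed between the peptide nuclei. The values are UPM over the nuclei of clusters 5, 12 and 18 with at least 2 UMIs of the peptide, in control replicates 1 and 2 and then mutant replicates 1 and 2. *Adarb2*, a marker of interneurons from the caudal ganglionic eminence, was 12393, 11034, 14439 and 13553 in *Vip* nuclei and 24.5, 389, 265 and 278 in *Sst* nuclei. *Nxph1*, a marker of interneurons from the medial ganglionic eminence, was 2278, 1854, 2399 and 2183 in *Sst* nuclei and 94.5, 332, 88.6 and 137 in *Vip* nuclei. Each value pools the nuclei of 1 mouse, and the pooled values of *Sst* and *Vip* nuclei were apart in both markers in all 4 mice.

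*Prox1*, the transcription factor of DGCs that interneurons of caudal origin also use, was 186 to 285 UPM in *Vip* nuclei and 3.81 to 16.2 in *Sst* nuclei. *Cnr1*, the cannabinoid receptor gene of cholecystokinin basket cells, was 1116, 829, 782 and 687 UPM in *Cck* nuclei, and 201, 182, 185 and 207 in the other nuclei of these clusters. These marker levels describe clusters made from the same nuclei and carry no test.

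Over the control clusters, the genes whose level followed that of each member most closely were looked for among 13429 genes, by Pearson's r of log2(CPM + 1) over 37 cluster-by-mouse sums. The sums share 2 libraries and differ in depth, so r is given as a description. *Npy* had the closest neighbours, the GABA transporter gene *Slc32a1* (r = 0.90) and *Gad1* (r = 0.86). *Sst* and *Cort* both had *Crhbp*, which encodes a binding protein of corticotropin-releasing hormone, as their nearest gene (r = 0.70 and 0.69), and *Tac2* had *Slc17a8*, a vesicular glutamate transporter gene (r = 0.75). *Vip* was among the nearest genes of *Sst* (r = 0.69) and of *Tac2* (r = 0.68), although *Sst* and *Vip* were in different nuclei of the same cluster. For *Pdyn* the nearest were *Ston2* (r = 0.68) and *Ptpra* (r = 0.66), for *Cck* *Chst8* and *Kmt2a* (r = 0.63 and 0.61), for *Penk* *Acot12* and *Slc47a1* (r = 0.70 for both), for *Tac1* *Stk32a* and *Pde3a* (r = 0.70 and 0.67), and for *Cort* also *Gm2516* (r = 0.66).

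In bulk RNAseq the members spanned a wide range of levels. By mean control TPM, *Cck* ranked 195 and *Sst* 390 of 46517 genes, followed by *Npy* (1999), *Penk* (6508), *Pdyn* (8195), *Vip* (9010), *Tac1* (10306), *Tac2* (11584), *Cort* (12616) and *Gal* (15211). A bulk level sums over all cells, and in it fewer cells of a type cannot be told apart from less RNA per cell.

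*Pdyn* was the member that fell most in the mutant hippocampus. It was 16.9 and 18.4 TPM in control libraries and 3.72 and 2.33 TPM in mutant libraries. Both mutant values lay far below both control values. The log2 fold change (log2FC) was -2.44 (SE 0.26, 5.44-fold lower; FDR = 0.0286 by the quasi-likelihood test of edgeR, Benjamini-Hochberg adjusted), and *Pdyn* was the only 1 of the 10 members called at FC above 3 and FDR below 0.05, where 0.218% of 20687 genes were called and 0.198% were called lower. The fall was 4.53-fold within replicate 1 and 7.89-fold within replicate 2. The call was lost when either control library was left out (FDR = 0.189 and 0.253 in edgeR, without control replicate 1 and 2), with the difference at -2.50 and -2.38. It was also lost with the replicate number, which in bulk RNAseq goes with the *Xist* pattern, as a term of the fit (FDR = 0.0587 in edgeR).

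*Gal* was the member with the lowest level in every library. It was 2.41 and 1.55 TPM in control and 0.96 and 0.47 TPM in mutant libraries, from 42, 32, 19 and 12 expected counts. The groups did not overlap, but the difference did not pass the test (log2FC -1.38, SE 0.53; FDR = 0.252 in edgeR). *Penk* was 25.8 and 26.7 TPM against 20.7 and 18.8 TPM, also without overlap (log2FC -0.29, SE 0.11; FDR = 0.247 in edgeR).

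*Sst* was higher in the mutant hippocampus. It was 319 and 347 TPM in control and 505 and 462 TPM in mutant libraries, with every mutant value above every control value. The log2FC was 0.63 (SE 0.09, 1.54-fold; FDR = 0.0495, edgeR's quasi-likelihood test), which passed the FDR but not the threshold of FC, where 1.21% of all genes tested passed the FDR alone and 0.198% did so in the higher direction. This call too was lost under some alternatives, with FDR between 2.58e-08 and 0.307. *Tac2* was 6.82 and 6.78 TPM in control and 11.5 and 14.0 TPM in mutant libraries. Its log2FC was 0.99 (SE 0.17; FDR = 0.0808 in edgeR, and 0.0117 in DESeq2), and it was 1.69-fold higher within replicate 1 and 2.07-fold within replicate 2.

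The other members moved less. *Npy* was 83.2 and 98.5 TPM in control and 101 and 111 TPM in mutant libraries, and *Cck* 530 and 508 TPM against 589 and 558 TPM. *Vip* was 13.6 and 15.3 TPM in control libraries, close to the 15.1 TPM of mutant replicate 1 and below the 23.2 TPM of mutant replicate 2. *Cort* was 4.91 and 4.61 TPM against 7.06 and 5.43 TPM, and *Tac1* 8.76 and 11.5 TPM against 9.74 and 13.5 TPM. None of these 5 passed the test, with log2FC between 0.23 and 0.49 and FDR from 0.185 (*Cck*) to 0.537 (*Tac1*) in edgeR. In TPM the groups of *Vip* and *Tac1* overlapped. On the CPM (counts per 1000000 counts, after TMM scaling, the scale of all tests), 6 members (*Vip* among them) lay above and 3 below the control libraries without overlap, where 25.8% and 25.4% of all genes did. The median log2FC of the 10 members was 0.30, and that of all genes tested 0.01, and 7 of the 10 had an unadjusted p below 0.05, as did 18.8% of all genes.

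**Figure D3:**
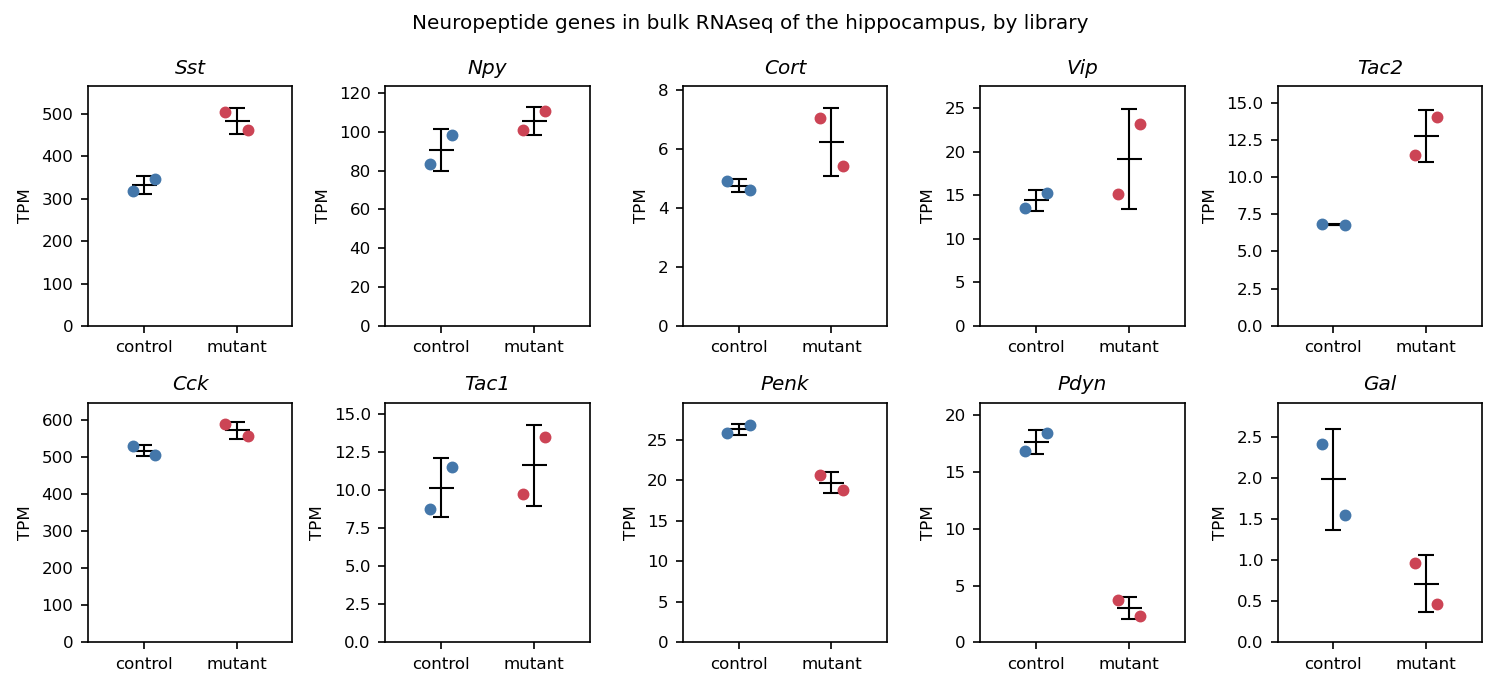
TPM of the 10 neuropeptide genes in each bulk library of the hippocampus (points), with the mean and SD of the 2 libraries per genotype (black bars); each axis starts at 0. *Pdyn* falls from a mean of 17.6 to 3.03 TPM and *Sst* rises from 333 to 484 TPM.

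Markers of tissue other than the neurons of the hippocampus were summed in the bulk libraries. The 12 markers of the choroid plexus summed to 136 and 74.9 CPM in control and 755 and 5785 CPM in mutant libraries, led by *Ttr* (log2FC 5.59; FDR = 0.103 in edgeR) and *Cldn2* (5.13; 0.125), and none of the 12 was at 0. Their median log2FC was 4.62 and none was called. The 9 striatum markers summed to 71.0 and 64.5 CPM in control and 80.9 and 102 CPM in mutant libraries. The 9 markers of the medial habenula, a nucleus rich in *Tac1*, summed to 53.3 and 51.3 CPM against 39.0 and 36.4 CPM. Of these 9, 8 had a mean below 1 CPM, and the median log2FC of the 7 tested was 0.65, against the direction of the sum. In control mossy cell nuclei the same list summed to 577 and 615 CPM, so it also takes in RNA of hippocampal neurons. Inhibitory neuron markers summed to 2018 and 2001 CPM against 2146 and 2110 CPM, with a median log2FC of 0.27. That list includes *Prox1*, also the marker of DGCs, which was 165 and 174 CPM in control and 32.4 and 18.8 CPM in mutant libraries. The share of nuclei labelled inhibitory was higher in the mutants. The part of these tissues in the bulk values of the members was not tested. In the snRNAseq data 184 nuclei of mutant replicate 2 were labelled choroid plexus and held 32 *Sst* UMIs, 13 of them in 1 nucleus.

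The snRNAseq data gave *Pdyn* by cell type. Over all nuclei it was 3.28 and 2.84 UPM in control and 0.456 and 0.758 in mutant mice, so the mutant values were again below the control values. The paper places most of the DGCs left in the mutants in the ventral dentate gyrus. Genotype and region therefore cannot be told apart in any DGC comparison here, and the part of region was not tested. Within DGC nuclei, *Pdyn* was 8.95 and 8.53 CPM in control and 4.78 and 7.13 CPM in mutant mice. The groups did not overlap, but the difference within DGCs did not pass the test (log2FC -0.38, SE 0.35; FDR = 0.645 in edgeR), and the mutant values rest on 2 UMIs in 90 nuclei and 24 UMIs in 463 nuclei. Both the value over all nuclei and the share of DGCs were lower in the mutant mice. The part of the DGC share in the lower value was not tested. Of the *Pdyn* UMIs of mutant mice, 16.7% and 41.4% were in DGCs, and 66.7% and 17.2% in inhibitory nuclei.

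**Figure D4:**
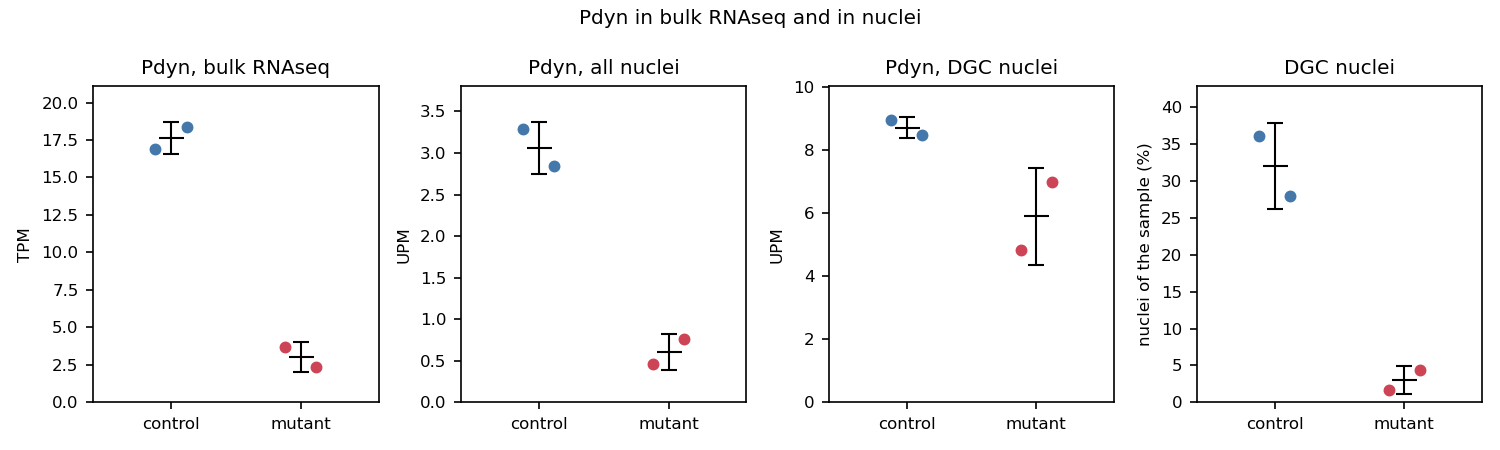
*Pdyn* in bulk RNAseq (TPM), over all nuclei and within DGC nuclei (both UPM), and DGC nuclei as a percentage of all nuclei, with 1 point per mouse and black bars for the mean and SD of 2 mice. *Pdyn* over all nuclei and the share of DGCs fall in both mutant mice, and *Pdyn* within DGCs is 8.97 and 8.48 UPM in control and 4.83 and 7.01 UPM in mutant mice.

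The same question, whether the peptide genes differed between genotypes within a cell type, was put to the 11 types that had 10 or more nuclei in all samples, on UMIs summed per mouse. Of the 47 member-by-type tests that passed the filter on low counts, edgeR's quasi-likelihood test called 0 at FC above 2 and FDR below 0.05, with 19 at an unadjusted p below 0.05. DESeq2 called 5 of the 47, but its share over all genes and types is not given here, so these 5 have no background. Over the same types 10.5% of all gene-by-type tests had an unadjusted p below 0.05. Of all genes tested, edgeR called 1.47% in DGCs, 0.59% in mossy cells, 0.383% in astrocytes, 0.132% in OPCs (oligodendrocyte precursor cells), 0.0892% in oligodendrocytes, 0.0562% in microglia, 0.0193% in inhibitory neurons, 0.00992% in CA2 and 0% in CA1, CA3 and excitatory neurons. In inhibitory neurons 8 members passed the filter, and 7 had an unadjusted p below 0.05, as did 12.1% of all genes there.

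In inhibitory neurons, 8 of 8 members tested had a negative log2FC. The make-up of this type differed between the genotypes: cluster 15, nearly without *Gad1* and *Gad2*, held 15 and 1 control nuclei and 143 and 102 mutant nuclei. *Cort* was 43.6 and 25.7 CPM in control and 14.3 and 13.8 CPM in mutant mice. Both mutant values lay below both control values (log2FC -1.29, SE 0.27; FDR = 0.16 in edgeR, 0.0129 in DESeq2). *Cck* was 194 and 288 CPM against 109 and 104 CPM (log2FC -1.18, SE 0.20; FDR = 0.107 in edgeR, 6.17e-05 in DESeq2), and the part of free RNA in these levels was not tested.

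*Vip* was 88.4 and 167 CPM in control and 87.3 and 45.6 CPM in mutant mice. The mutant values lay below the control values, though mutant replicate 1 only just did (log2FC -0.98, SE 0.34; FDR = 0.339 in edgeR). In cluster 5, which held most *Vip*, the groups overlapped, with 119 and 237 UPM in control and 124 and 65.6 UPM in mutant mice. *Tac2* was 23.7 and 29.2 CPM against 21.4 and 7.92 CPM, and *Npy* 79.5 and 117 CPM against 76.7 and 40.6 CPM, with the same mutant mouse lowest in all of these genes. *Penk* and *Tac1* had log2FC of -0.79 and -0.70 (FDR = 0.375 and 0.26 in edgeR).

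*Sst* was 276 and 333 CPM in control and 295 and 205 CPM in mutant mice. It was the only 1 of the 8 whose groups overlapped (log2FC -0.29, SE 0.20; FDR = 0.592 in edgeR). The other 7 lay below the control mice without overlap, where 21.9% of all genes tested did. In the clusters with *Gad1* and *Gad2* alone, *Sst*, *Npy* and *Vip* overlapped. There *Npy* was 86.0 and 129 UPM in control and 91.0 and 45.7 UPM in mutant mice, and *Vip* 96.9 and 184 UPM against 104 and 51.6 UPM. The 8 log2FC there were negative too, from -0.18 (*Sst*) to -1.19 (*Cck* and *Cort*), and none was called by edgeR. Over the whole type the median log2FC was -0.87 over the members tested and 0.01 over all genes. Leaving out single mice changed these calls: without control replicate 1, *Npy*, *Vip*, *Tac2* and *Cck* were called, without control replicate 2 *Cort* alone, without mutant replicate 1 *Cort*, *Npy*, *Vip*, *Tac2* and *Cck*, and without mutant replicate 2 *Cort* and *Cck*. The choroid plexus markers summed to 56.1 and 54.7 CPM in control and 27.6 and 109 CPM in mutant inhibitory nuclei, and their part in the result was not tested.

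The shares of inhibitory nuclei with a UMI are read beside the depth. *Sst* nuclei were 23.7% and 28.8% in control and 28.5% and 27.4% in mutant mice, so the groups overlapped. *Npy* nuclei were 21.6% and 32.9% against 16.4% and 17.1%, and *Vip* nuclei 10.8% and 14.6% against 9.44% and 9.29%. Median depths of inhibitory nuclei were 6405 and 9447.5 UMIs in control and 4117 and 6914 UMIs in mutant mice. After thinning to 1500 UMIs, some members no longer had a lower share in both mutant mice. An exact permutation test of 2 against 2 mice cannot give a two-sided p below 0.333, so none was made. *Sst* over all nuclei, of which inhibitory nuclei were a larger share in the mutant samples, was 35.4 and 50.5 UPM in control and 65.3 and 47.8 in mutant mice, which overlapped.

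*Cck* differed in the same direction in all types. Its log2FC was negative in 11 of 11 types, from -1.45 in CA3 pyramidal cells to -0.16 in microglia, and both mutant values lay below both control values in 10 of them. All genes tested did so in 21.0% in CA1, 20.8% in CA2, 21.8% in CA3, 26.1% in DGCs, 19.9% in OPCs and in oligodendrocytes, 21.3% in astrocytes, 20.4% in excitatory neurons and 19.6% in mossy cells. In CA3 it was 174 and 182 CPM in control and 68.3 and 63.0 CPM in mutant mice (SE 0.16; FDR = 0.0526 in edgeR, 9.44e-09 in DESeq2). In CA1 it was 216 and 308 CPM against 139 and 117 CPM (log2FC -1.03, SE 0.21; FDR = 0.421 in edgeR, 0.00216 in DESeq2).

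In DGCs, *Cck* was 98.3 and 113 CPM in control and 55.0 in both mutant mice. The groups were apart, and the log2FC of -0.94 (SE 0.19, 1.92-fold lower) passed the FDR (0.0411 in edgeR) but not the threshold of FC above 2, where 1.47% of 15003 genes were called and 1.77% passed the FDR. Control DGCs held *Cck* at 98.5 and 113 UPM, below the 159 and 184 UPM of oligodendrocytes. After thinning, 14.6% and 15.4% of control DGCs held a *Cck* UMI, against 21.98% and 24.4% of oligodendrocytes. The median depths differed, at 4628 and 7688 UMIs in DGCs and 1727 and 2339 in oligodendrocytes. How much of the DGC level is background was not tested. Mossy cells showed 237 and 342 CPM against 162 and 149 CPM (log2FC -0.92; FDR = 0.175 in edgeR). In glia it was 123 and 122 CPM against 102 and 99.7 CPM in astrocytes (log2FC -0.29) and 161 and 185 CPM against 111 and 133 CPM in oligodendrocytes (-0.46). In bulk tissue, by contrast, *Cck* was slightly higher in the mutants (0.23, SE 0.07), and over all nuclei 170 and 222 UPM in control and 129 and 101 in mutant mice. The part of free RNA in the differences of the types was not tested.

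*Sst* went the other way. Outside inhibitory neurons its log2FC was positive in 8 of 8 types, between 0.09 and 0.96, and the mutant mice lay above the control mice without overlap in 4 of them, DGCs, astrocytes, excitatory neurons and microglia, where 22.2%, 20.1%, 21.8% and 12.4% of all genes did. In astrocytes it was 18.4 and 33.1 CPM in control and 49.5 and 53.6 CPM in mutant mice (log2FC 0.96, SE 0.29; FDR = 0.186 in edgeR). In DGCs it was 9.21 and 11.5 CPM against 19.1 and 16.6 CPM (log2FC 0.72, SE 0.29; FDR = 0.266 in edgeR). The share of inhibitory nuclei was 9.0% and 9.12% in the control and 19.4% and 15.8% in the mutant samples, and the part of free RNA in these values was not tested. *Penk* in DGCs was 4.21 and 6.74 CPM in control and 2.39 and 1.78 CPM in mutant mice, from 48, 109, 1 and 6 UMIs (log2FC -1.56, SE 0.56; FDR = 0.219 in edgeR).

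**Figure D5:**
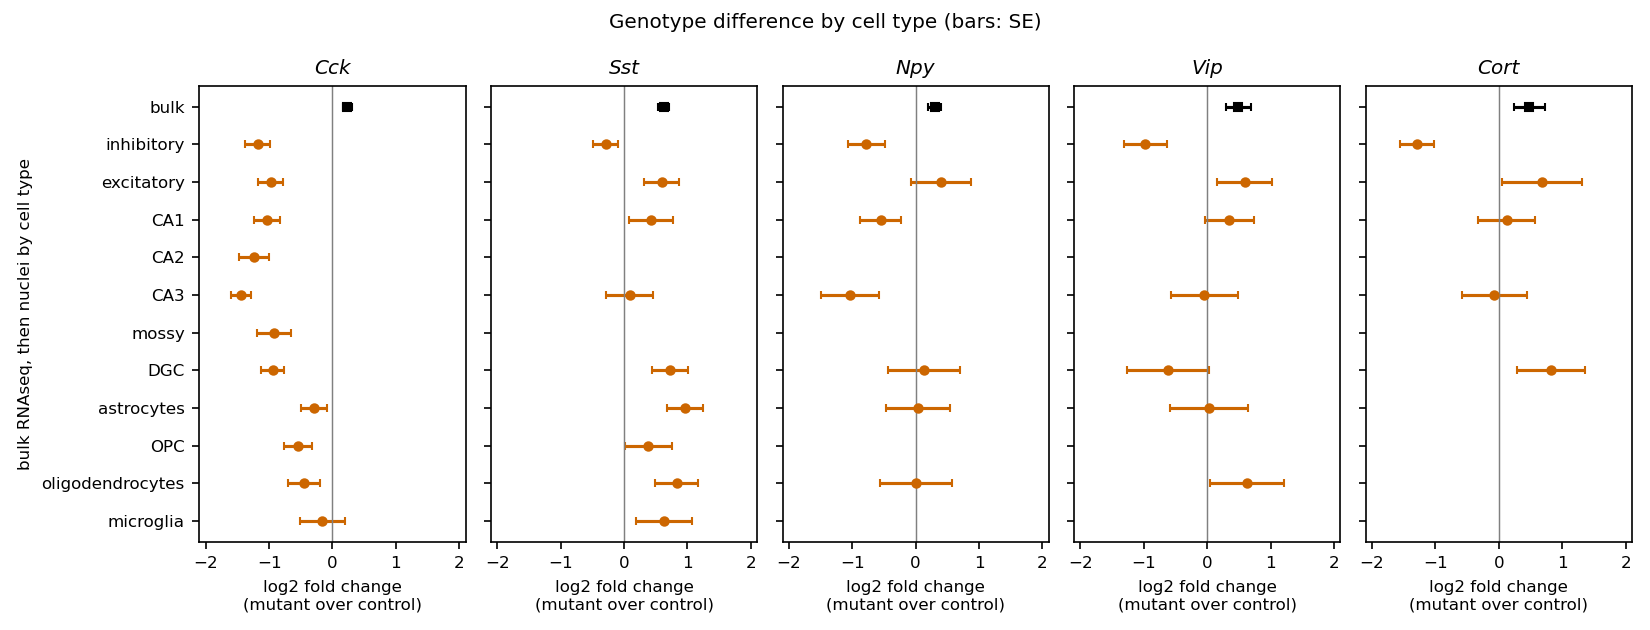
Log2 fold change (mutant over control) of 5 neuropeptide genes in bulk RNAseq (squares) and in each cell type of the nuclei (circles), with bars of 1 SE; types where the gene did not pass the filter are empty. *Cck* lies left of 0 in all 11 types and right of 0 in bulk RNAseq, and *Sst* lies left of 0 in inhibitory neurons only.

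Genes of the same pathways were measured as lists. None of 16 peptide receptor genes tested was called in bulk RNAseq, and the 2 largest differences were those of *Oprk1*, the dynorphin receptor (log2FC 0.98; FDR = 0.117 in edgeR), and *Oprm1*, the mu opioid receptor (-0.83; 0.538). In DGCs, where 1.47% of all genes were called, 1 of 11 was called, *Tacr1*, the substance P receptor (log2FC 2.61, SE 0.54; FDR = 0.0459 in edgeR). It was 0.79 and 1.11 CPM in control and 2.39 and 6.83 CPM in mutant mice, from 9, 18, 1 and 23 UMIs, so mutant replicate 1 rests on 1 UMI. In inhibitory neurons none of 14 was called, the largest being *Vipr1*, a receptor for vasoactive intestinal peptide (1.61; FDR = 0.176), and *Cckbr*, the brain cholecystokinin receptor (0.84; 0.371).

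Of the 14 genes for peptide processing and granule proteins, 3 were called lower and none higher in DGCs, where 0.64% of all genes were called lower. The DGCs left in the mutants are mostly ventral by the paper's account, and the part of region in these calls was not tested. *Pcsk1n*, an inhibitor of the prohormone convertase that cuts the precursors, was 254 and 209 CPM in control and 81.3 and 71.9 CPM in mutant mice (log2FC -1.63; FDR = 0.00662 in edgeR). *Chgb* (chromogranin B; -1.45; 0.0189) and *Scg2* (secretogranin II; -1.36; 0.0134) are proteins of the granule core. The median of the 14 was -0.39 in DGCs and -0.27 in inhibitory neurons, where none was called, and 0.07 in bulk RNAseq, where none was called either and *Scg5*, a chaperone of a convertase, was lower at FDR = 0.0206 (log2FC -0.74 in edgeR). A negative median was not particular to DGCs. Over the genes tested it was -0.54 in excitatory neurons, -0.37 in CA1, -0.28 in CA2, -0.23 in CA3 and -0.22 in mossy cells. In glia it was -0.21 in astrocytes, -0.11 in microglia, -0.07 in oligodendrocytes and 0.12 in OPCs. In OPCs *Pcsk1n* was called lower too (-1.26; 0.0127). Of the choroid plexus markers, *Ttr* was called higher in microglia (2.32; 0.0348), from 22, 5, 0 and 145 UMIs, so the mutant mice were apart from each other.

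None of the other neuropeptide genes was called in bulk RNAseq (16 tested; median 0.04, with *Trh* at 1.28 and *Prok2* at 0.75), in inhibitory neurons (12 tested; median -0.30) or in DGCs (5 tested; median -0.56). Among 21 inhibitory neuron markers *Prox1*, also the marker of DGCs, was called lower in bulk RNAseq (log2FC -2.73; FDR = 0.0244 in edgeR). In DGCs *Nos1* was called higher (1.16; 0.0255), in mossy cells *Nxph1* (2.71; 0.0366), in CA2 *Erbb4*, a neuregulin receptor gene (2.45; 0.0152), and none of the 21 was called in inhibitory neurons (median -0.16).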

How the data were processed

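Hippocampi of 2 control and 2 mutant mice were measured by bulk RNAseq and of another 2 and 2 by snRNAseq. For bulk RNAseq the authors mapped reads with Bowtie2 2.2.9 and RSEM 1.3.0 (mm10), and deposited an expected count and a TPM per gene, and a matrix of signal values divided by size factors. For the nuclei the authors used Cell Ranger 3.1.0 with a pre-mRNA index and deposited UMI counts, cell type labels and a size factor, a ratio, for each nucleus. Whether doublets were removed is not given in the sources used here, and no doublet caller was run; nuclei above 3 times the median UMIs of their type and sample were left out as an alternative.

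Expected counts were rounded, and UMIs were summed per mouse and deposited cell type in 11 types with at least 10 nuclei in each sample. Mutant and control were compared with edgeR 4.0.16 (filterByExpr, TMM, quasi-likelihood test, R 4.3.3) over all genes, with FDR below 0.05 and FC above 3 (bulk) or 2 (nuclei). DESeq2 1.42.0, limma 3.58.1 (pseudocount 1), other filters, a replicate block and leaving out each mouse were alternatives. Shares were thinned to 1500 UMIs with a fixed seed, and intervals are exact binomial at 95%. In data simulated on these libraries, 97% of 200 genes changed 6-fold were recovered in bulk (20687 genes), and at 4-fold 94.5% in DGCs (15003), 98.5% in inhibitory neurons (15557) and 90.5% in mossy cells (7289). False calls numbered 19, 17, 10 and 19 in that order. Smaller changes, such as those of the members, were not simulated, so how many of them would be recovered is not known. The members and lists, and the genes named, were chosen with earlier results of these data known. All members are named, and from the lists every gene called in any comparison and some of those with the largest differences. P-values measure the spread between these mice only, with 2 per group.

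The remaining marker lists had no gene called in bulk RNAseq: 10 of the deep layers of the neocortex (summed CPM 353 and 390 in control, 315 and 393 in mutant libraries) and 8 of the thalamus (126 and 123 against 124 and 101).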

Additional observations from a re-analysis of the deposited data

Results flagged for a closer look

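*Vip* differed in direction between cell types. Every mutant mouse lay above every control mouse in CA1 (log2FC 0.35), excitatory neurons (0.59) and oligodendrocytes (0.63), and every mutant mouse lay below in inhibitory neurons (-0.98). Of all genes tested, 21.8% lay above in this way in excitatory neurons and 21.9% below in inhibitory neurons. The shares above in CA1 and oligodendrocytes are not given here. The difference between the types was not tested. In inhibitory cluster 5 alone the groups overlapped, with 119 and 237 UPM in control and 124 and 65.6 UPM in mutant mice, and the pooled type held 15 and 1 control but 143 and 102 mutant nuclei of cluster 15. In CA1 *Vip* was 1.23 and 1.53 CPM in control and 1.97 and 1.66 CPM in mutant mice, in excitatory neurons 2.95 and 2.06 CPM against 4.05 and 3.52 CPM, and in oligodendrocytes 6.79 and 7.09 CPM against 22.2 and 9.66 CPM, the 22.2 CPM from 3 UMIs in 73 nuclei. The part of free RNA in these levels was not tested. These levels are far below the 88.4 and 167 CPM of control inhibitory neurons, and none of the 4 differences passed edgeR's quasi-likelihood test. With 2 mice per genotype, no mouse could be tested for standing apart from its group.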

How the results depend on the processing

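The count of genes called in bulk RNAseq was 45 (4 higher, 41 lower), and became 139 with DESeq2 (73 and 66), 313 with no filter on low counts (201 and 112), 26 with the replicate block, 250 with no threshold of FC (41 and 209) and 82 at FC above 2, and 0 to 395 when a library was left out. In inhibitory neurons 3 became 67 with DESeq2, 213 with no filter, 246 with the replicate block, 1 in cluster 5 alone (chosen after seeing the data) and 114 to 265 without a mouse. In DGCs 220 became 556 with no filter, 569 with the block and 0 to 571 without a mouse (0 without mutant replicate 2, 16 without mutant replicate 1), and in mossy cells 43 became 7 with DESeq2, 146 with no filter, 203 with the block, 17 without nuclei of high UMIs and 0 to 153 without a mouse. Members called in the other types were 0, and 3 with DESeq2, 4 with no filter, 3 with the block, 1 without nuclei of high UMIs and 1 to 4 without a mouse. The labels do not say what the replicate numbers share, in bulk RNAseq they go with the *Xist* pattern, and with 2 pairs the correlation of deviations (0.06 in bulk RNAseq, 0.04 to 0.39 in the types) does not settle the pairing. With the block, *Pdyn* in bulk RNAseq had FDR = 0.0587 in edgeR, and *Cort*, *Vip*, *Tac2* and *Cck* were called in inhibitory neurons. Log2FC changed sign for *Npy* in DGCs without mutant replicate 1 (-0.45, with 1.54 as the highest value without a mouse), for *Vip* in DGCs without control replicate 2 (0.045, and as low as -8.33, where *Vip* was at 0 in the remaining mutant mouse), for *Sst* without control replicate 1 in CA1 (-0.032, up to 1.15) and CA3 (-0.34, up to 0.81), for *Sst* in CA3 without nuclei of high UMIs (-0.035), for *Sst* without mutant replicate 2 in OPCs (-0.032, up to 0.97) and oligodendrocytes (-0.078, up to 1.67), and for *Cck* in microglia without control replicate 2 (0.12) or mutant replicate 2 (0.38, down to -0.26), and the cause was not tested. Of the other values of single genes, 375 kept direction and call, 42 gained the call and 3 lost it. Low UMI numbers limit *Gal*, *Pdyn* and *Penk* in nuclei.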
